A study of Mus musculus with 8 samples.

Results

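The comparison described here sets 2 arrays of knockout cells with a star-mutant vector (KO_starmut) against 2 arrays of knockout cells labelled MIG (KO_MIG), 4 of the 8 arrays of the series. The arrays were chosen by their titles, which carry the replicate numbers 2 and 3 in each group, and same-numbered arrays were paired. The cells were total bone marrow of C57/BL6 mice, labelled mir-223-/- in the groups KO_starmut, KO_MIG and KO_223mut and wild type in the group WT_MIG. In all 4 groups the marrow was stimulated for 2 days and transduced with retroviruses for Hoxa9, which carried neomycin resistance under a pgk promoter, and for Meis1, which carried YFP. The producer cells, irradiated with 4000 cGy, shared the culture during transduction, and cells were then sorted for YFP and selected with 1.4 mg/ml of neomycin, so Hoxa9 and Meis1 are shared by every group, the controls included. MIG is the usual name of a murine stem cell virus vector with green fluorescent protein, but the labels do not spell it out and do not describe the mutations. The header of the authors' deposited table writes KO_starmut as KO_223*mut and KO_MIG as KO. The series speaks of 2 biological replicates and does not name the mice or cultures behind each. The p-values therefore reflect how these arrays vary among themselves, which may be technical.

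A microRNA hairpin is cut into a duplex, of which the guide strand is loaded into an Argonaute protein and pairs, mainly through its seed at bases 2 to 8, with target messages, while the passenger strand, formerly written with a star, is mostly lost. miR-223 is a microRNA of the myeloid lineage that rises as granulocytes mature, and its hairpin can yield both strands. In a vector with a changed star strand the guide strand is read here, from the name only, as the one left intact. The mouse sequences are shown because they define the comparison: the guide strand miR-223-3p is the strand the KO_starmut vector would carry unchanged, and the passenger strand miR-223-5p is the one it would carry changed. They come from RefSeq on GRCm38.p6, where the hairpin lies at chrX:96242817-96242926 on the plus strand. In the mature strands the seed is in capitals, and in the hairpin both mature strands are.
mmu-miR-223-3p: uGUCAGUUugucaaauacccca
mmu-miR-223-5p: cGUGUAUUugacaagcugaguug
Mir223 hairpin: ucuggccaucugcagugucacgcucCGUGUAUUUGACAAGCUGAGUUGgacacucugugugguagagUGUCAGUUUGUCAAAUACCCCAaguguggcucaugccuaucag
The seeds of the strands, GUCAGUU and GUGUAUU, differ.

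Each value is a log2 signal from which the authors had subtracted the median of the probe set over all 8 arrays, so a value is a distance from that median and carries no level above background. Presence of a cell type therefore could not be read from its markers, and values of different genes are not set against each other as levels. The 28853 probe sets had array medians between -0.0126 and 0.0109, and 9 cells were blank, all in KO_starmut replicate 3. No probe set given below has a blank cell. Genes are named only through the authors' deposited table, which holds 1264 probe sets that the authors selected on these same 8 arrays, 1081 of them with a single symbol (1049 genes). A named gene was therefore more likely than others to differ between groups, whatever the comparison. Since the RNA came from mixed cells, fewer cells of a type and less RNA per cell cannot be told apart. For the SEs below, the number of arrays limits the precision.

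The surface antigen Ly6a and single genes of secreted and surface proteins, such as Crisp1, Psg17 and Anpep, read higher with the star-mutant vector. Single genes such as Tlr7, Il1r1 and Apobec3 read lower by smaller amounts. None of them passed a limma adjusted p of 0.05. Of 28853 probe sets, 0 (0%) passed in KO_starmut minus KO_MIG, fitted with the replicate number as a block, and 0 passed without the block. At an unadjusted p under 0.05 there were 2555 (8.86%) with the block and 1213 without it. The lowest adjusted p was 0.0595, reached by 3 probe sets. What follows are therefore measured differences and not calls. In both directions the differences were small, with an SD of 0.114 over all probe sets. Only 13 probe sets differed by 1 or more on the log2 scale, all higher in KO_starmut, and 3 of these have a single symbol: Ly6a, Crisp1 and Anpep. A further 4 of the 13 read high in KO_starmut replicate 3 alone.

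Ly6a, the stem cell antigen Sca-1, is a lipid-anchored surface protein used to mark mouse blood stem and progenitor cells. It read 1.15 in KO_starmut replicate 2 and 1.14 in KO_starmut replicate 3, against -0.85 and -0.43 in the KO_MIG arrays. The star-mutant arrays nearly coincided, both lay far above the controls, and the spread was on the control side. The difference was 1.79 ± 0.13 (log2, SE, n = 2 arrays a group, limma adjusted p = 0.0595), or 3.45-fold. Each same-numbered pair showed it, with 2.00 for the arrays numbered 2 and 1.58 for those numbered 3. In WT_MIG, Ly6a read -0.04 and 0.19, and in KO_223mut 0.04 and -0.16, so that KO_MIG had the lowest and KO_starmut the highest arrays of the series. Ly6a was the only member named of a list of 26 LY6 and related surface proteins, so its family could not be followed.

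**Figure D1:**
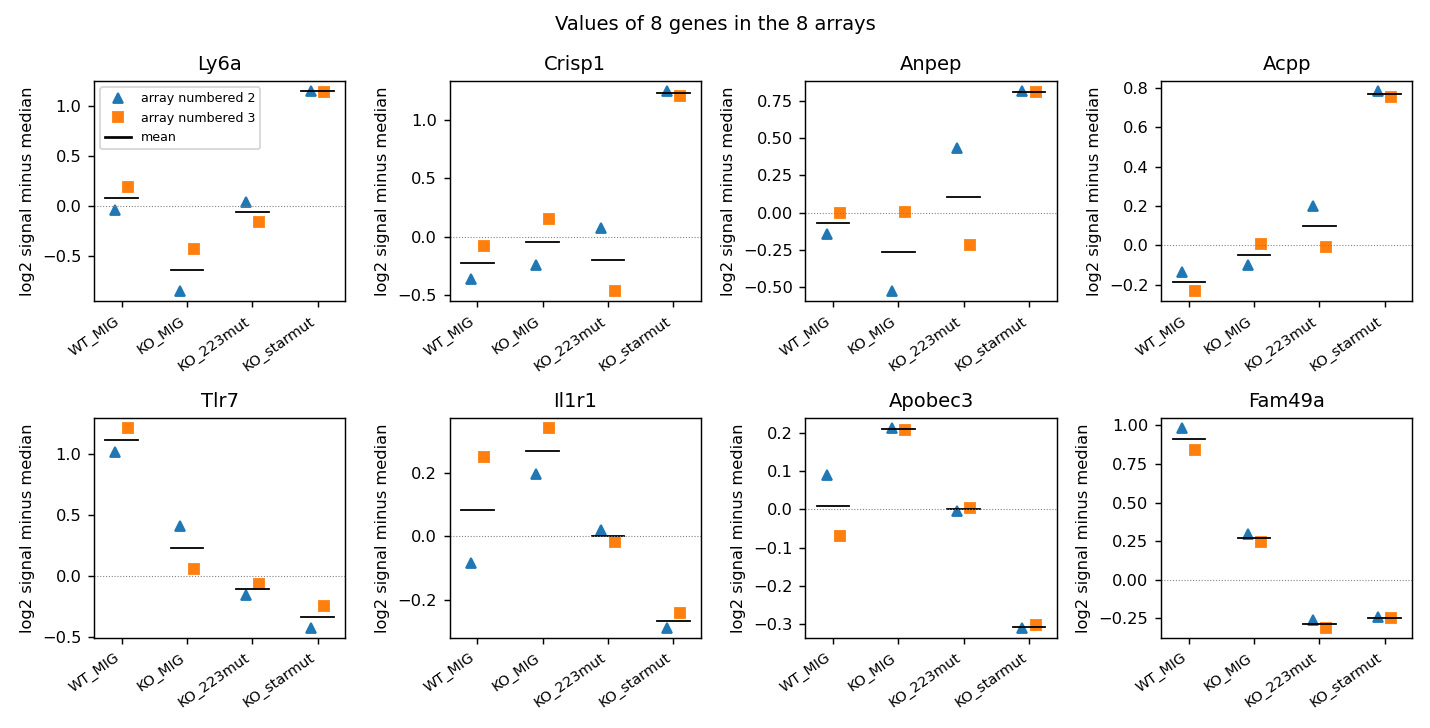
Log2 signal minus the probe set's median over 8 arrays (vertical axes, each with its own scale) for 8 genes in the 4 groups. Triangles are arrays numbered 2, squares arrays numbered 3 and bars the mean of both. Ly6a at 1.15 and 1.14, Crisp1, Anpep and Acpp stand highest in both KO_starmut arrays, while Tlr7, Il1r1 and Apobec3 stand lowest there, and Fam49a is about as low in KO_223mut.

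Crisp1, a cysteine-rich secreted protein best known from the epididymis, read 1.24 and 1.21 in KO_starmut and -0.24 and 0.15 in KO_MIG. The difference was 1.27 ± 0.20 (adjusted p = 0.22, 2.41-fold), and the other 4 arrays, of KO_223mut and WT_MIG, lay between -0.47 and 0.08. It was thus apart from all other groups in both arrays. Psg17, a pregnancy-specific glycoprotein of the immunoglobulin superfamily, read above all other arrays in both star-mutant ones, at 1.0 and 0.68 against -0.19 and -0.06, a difference of 0.97 ± 0.12 (adjusted p = 0.156). Its WT_MIG arrays were the lowest, at -0.66 and -0.67. Of the list of CRISP and pregnancy-specific glycoprotein genes, 3 of 24 were named. Both Crisp1 and Psg17 were under an unadjusted p of 0.05 on the higher side, as were 6.94% of all single-symbol probe sets. The third, Ceacam2, gave 0.09. The list was chosen with earlier results of these data known, so the count is not a result about either family.

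Enzymes of the cell surface and the secretory path followed. Anpep, the aminopeptidase CD13 of myeloid cells, read 0.82 and 0.81 in KO_starmut and -0.53 and 0.00 in KO_MIG. Its difference of 1.08 ± 0.23 (adjusted p = 0.309) depended on which control array was used, with 1.35 for the pair numbered 2 and 0.81 for the pair numbered 3. Acpp, an acid phosphatase first known from the prostate, read 0.78 and 0.75 against -0.10 and 0.01, a difference of 0.82 ± 0.08 (adjusted p = 0.0846). The Acpp arrays of KO_starmut lay above all other arrays, which reached 0.20. Mmp12, the macrophage elastase, read 0.30 and 0.31 against -0.48 and -0.10, a difference of 0.60 ± 0.11 (adjusted p = 0.295), or 0.39 without KO_MIG replicate 2. For Mmp12 the wild-type arrays stood near those of the star-mutant cells, at 0.23 and 0.10, and the KO_223mut arrays stood low, at -0.40 and -0.39. Of 35 genes in the list of surface and secreted peptidases and phosphatases 8 were named. Anpep, Acpp and Mmp12 were under an unadjusted p of 0.05 on the higher side, as were 6.94% of all single-symbol probe sets. On the lower side, with 19.8% of all single-symbol probe sets, was Mgam, a disaccharidase, at -0.29 ± 0.08. Mgam was not under that p without KO_MIG replicate 3 or KO_starmut replicate 3. Of the 8, 4 were above 0 and 4 below. The median of the 8 was 0.02, and lay between -0.06 without KO_MIG replicate 3 and 0.16 without KO_MIG replicate 2. This list too was chosen with earlier results of these data known, so its counts are not a result about such enzymes.

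The other genes with the 15 largest positive differences had various roles. Cd200r3, a receptor of the CD200 receptor family found on mast cells and basophils, read 0.57 and 0.64 in KO_starmut and -0.02 and 0.02 in KO_MIG, a difference of 0.60 ± 0.09 (adjusted p = 0.22). It was the only gene named of 21 mast cell and basophil genes, so these cells could not be followed through other markers. Hmox1, the haem oxygenase that degrades haem, read 0.46 and 0.15 against -0.15 and -0.32 (0.54 ± 0.10). Cd55, the decay-accelerating factor of complement, read 0.37 and 0.32 against -0.26 and -0.03 (0.49 ± 0.10), while its WT_MIG arrays read far lower, at -1.47 and -1.43. Cd55 thus read further from wild type with the star-mutant vector than without it. Rgs1, which shortens G protein signals, read 0.13 and 0.22 against -0.13 and -0.38 (0.43 ± 0.09), and WT_MIG read 0.33 and 0.30. The remaining genes of the 15 were Rnf128, a ubiquitin ligase, at 0.54 ± 0.11, Usp17l5, a deubiquitinase gene, at 0.52 ± 0.09, Tarm1, an activating receptor of myeloid cells, at 0.52 ± 0.10, Bmp2, a secreted growth factor, at 0.46 ± 0.06, and Niacr1. Adjusted p-values of the 15 lay between 0.0595 and 0.541. Niacr1, the niacin receptor now named Hcar2, had the highest of them and rested on 1 control array: KO_MIG replicate 3 read -1.01 and replicate 2 read -0.01, against 0.08 and 0.01 in KO_starmut. Its difference was 0.55 ± 0.22, and 0.11 without KO_MIG replicate 3.

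**Figure D2:**
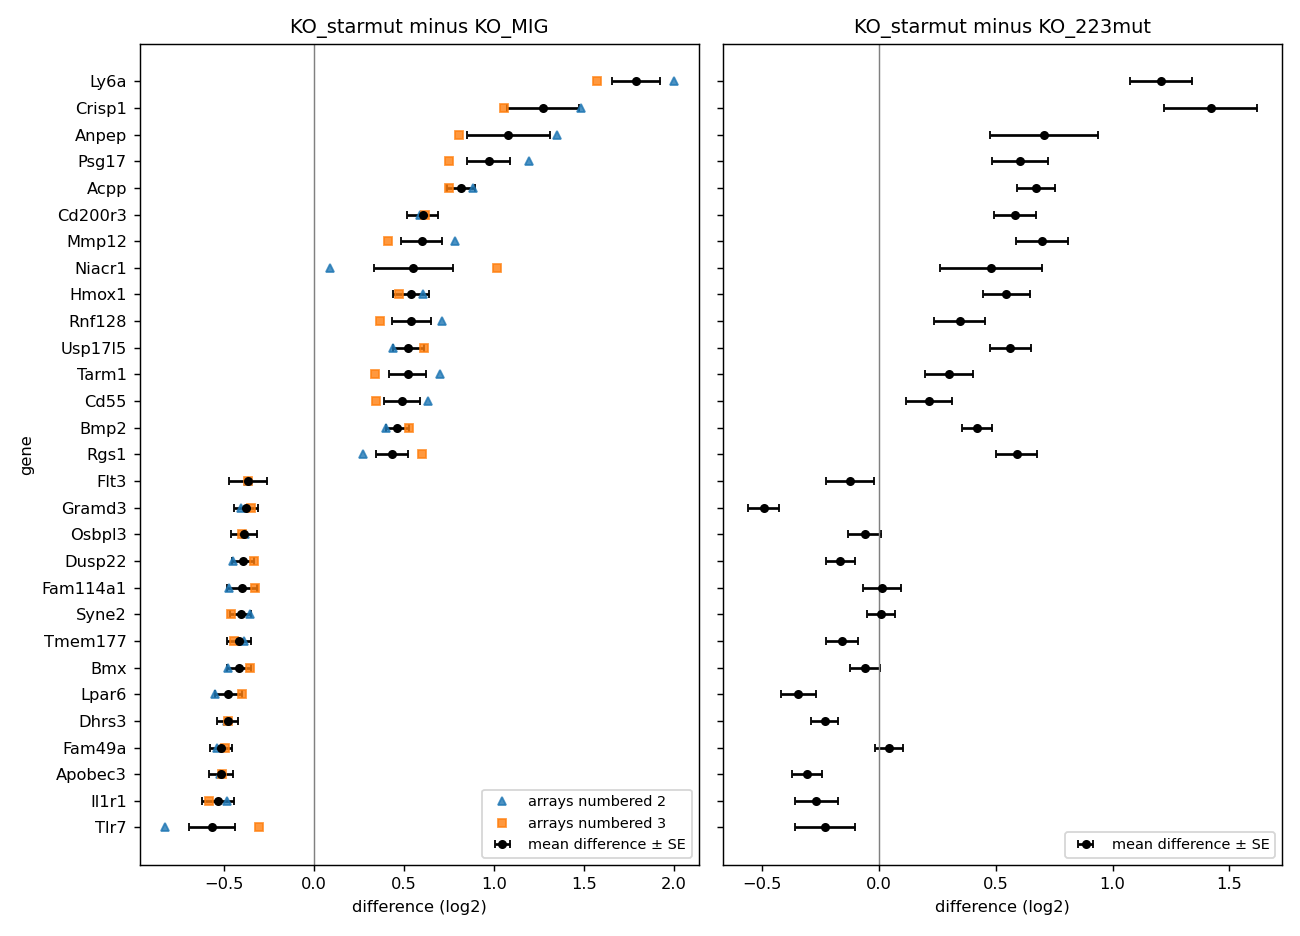
Log2 differences (horizontal axes) of the 15 genes with the largest positive and 14 of the 15 with the largest negative differences, ordered by KO_starmut minus KO_MIG (left), with KO_starmut minus KO_223mut of the same genes at right. Black points are mean differences with the moderated SE, triangles and squares the differences of the arrays numbered 2 and 3. Positive differences reach 1.79 and negative ones -0.57, and the pairs lie far apart for Niacr1 and Tlr7.

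The negative differences were smaller in size than the largest positive ones. Tlr7, the endosomal sensor of single-stranded RNA, read -0.42 and -0.25 in KO_starmut and 0.41 and 0.06 in KO_MIG, a difference of -0.57 ± 0.13 (adjusted p = 0.332). Its WT_MIG arrays read 1.01 and 1.21, so that the star-mutant arrays lay further from wild type than the KO_MIG arrays did. The pairs differed in size, at -0.83 for the arrays numbered 2 and -0.31 for those numbered 3, and the difference was -0.32 without KO_MIG replicate 2. Apobec3, a cytidine deaminase that restricts retroviruses, read -0.31 and -0.30 against 0.21 and 0.21, a difference of -0.52 ± 0.06 (adjusted p = 0.16). Both groups were tight and lay on either side of the wild-type arrays, at 0.09 and -0.07.

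Of the list of innate sensors of nucleic acids and microbes, 7 of 45 genes were named, and 4 of them were under an unadjusted p of 0.05, all lower in KO_starmut. Besides Tlr7 and Apobec3 these were the DNA sensor Aim2 (-0.23 ± 0.09) and Tmem173, the adaptor STING of the cytosolic DNA pathway (-0.16 ± 0.06). The other members were the peptidoglycan sensor Nod1 at -0.11, the RNA sensor Tlr13 at 0.00 and the inflammasome component Nlrp3 at 0.15. The median of the 7 was -0.16, against -0.04 over the 1081 probe sets with a single symbol and -0.01 over all 28853. Among those 1081, 289 (26.7%) were under an unadjusted p of 0.05, 75 (6.94%) higher and 214 (19.8%) lower. The 4 counted here became 2 without KO_starmut replicate 2, without KO_starmut replicate 3 or without KO_MIG replicate 2, and 3 without KO_MIG replicate 3. No sensor was called by the adjusted p. The list was chosen with earlier results of these data known, so its counts and its median are not a result about the sensors.

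Il1r1, the signalling receptor of interleukin 1, read -0.29 and -0.24 in KO_starmut and 0.19 and 0.34 in KO_MIG, a difference of -0.53 ± 0.09 (adjusted p = 0.25). Flt3, the receptor tyrosine kinase of multipotent and lymphoid progenitors, read -0.31 and -0.26 against 0.06 and 0.11 (-0.37 ± 0.10, adjusted p = 0.406). Of 82 cytokine, chemokine and receptor genes 6 were named. Under an unadjusted p of 0.05 on the lower side, besides Il1r1, were the receptor of tumour necrosis factor Tnfrsf1a at -0.14 and the eosinophil chemokine receptor Ccr3 at -0.15. On the higher side was the chemokine receptor Ccr1 at 0.32 ± 0.11. Of all single-symbol probe sets, 19.8% were lower and 6.94% higher at that p. Tnf gave -0.06 and Csf1 gave 0.15. The Ccr1 difference was 0.56 in the pair numbered 2 and 0.09 in the pair numbered 3. Directions in this group were mixed, and its median was -0.10, or -0.03 without KO_MIG replicate 2. The 3 on the lower side became 1 whichever of the 4 arrays was left out, and the 1 on the higher side became 0 without KO_starmut replicate 2.

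Fam49a, now Cyria, whose product binds Rac1, read -0.24 and -0.25 in KO_starmut and 0.30 and 0.24 in KO_MIG (-0.52 ± 0.06, adjusted p = 0.156), while KO_223mut read -0.26 and -0.31 and WT_MIG 0.99 and 0.84. The arrays of both mutant vectors thus stood together below KO_MIG, and wild type stood above it. Dhrs3, a retinaldehyde reductase, read -0.37 and -0.33 against 0.11 and 0.15 (-0.48 ± 0.06, adjusted p = 0.156). The lysophosphatidic acid receptor Lpar6 read -0.39 and -0.32 against 0.16 and 0.08 (-0.48 ± 0.07, adjusted p = 0.22). Among the others of the 15 were the Tec-family kinase Bmx at -0.42 ± 0.07, Tmem177 at -0.42 ± 0.07, and Syne2, the nuclear envelope protein nesprin-2, at -0.41 ± 0.06 with -0.23 to -0.34 on 3 further probe sets. Fam114a1 stood at -0.40 ± 0.08, the phosphatase Dusp22 at -0.39 ± 0.06, the oxysterol-binding protein gene Osbpl3 at -0.39 ± 0.07 and Gramd3 at -0.38 ± 0.06. Adjusted p-values of these 15 lay between 0.156 and 0.406.

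Markers of mature myeloid cells did not move one way. Of 62 in the list 11 were named, 3 of which were higher at an unadjusted p under 0.05 (Anpep, Mmp12 and Ccr1) and 3 lower, beside 6.94% and 19.8% of all single-symbol probe sets. The lower ones were the inhibitory receptors Pilra at -0.28 ± 0.07, Cd33 at -0.21 ± 0.07 and Sirpa at -0.15 ± 0.05. The integrin Itgam gave -0.09, the lysosomal glycoprotein Cd68 0.04, the lectin Clec4d 0.00, the oxidase subunit Ncf1 -0.11 and Chi3l1 -0.04. The median of the 11 was -0.04, with 0.05 without KO_MIG replicate 3 and -0.13 without KO_MIG replicate 2. The 3 lower ones became 1 without KO_MIG replicate 3 or either KO_starmut array. Stem and progenitor genes, of which 3 of 30 were named, all gave values below 0 apart from Ly6a, which stood in its own list: Flt3 at -0.37, the transcription factor Lmo2 at -0.22 ± 0.08 and Hoxa10 at -0.11. Flt3 and Lmo2 were the 2 under an unadjusted p of 0.05, and neither was without KO_starmut replicate 2 or KO_MIG replicate 3. Of the Hox genes and cofactors, Meis3 gave -0.20 ± 0.07 and Hoxb5 0.04, and the transduced genes Hoxa9 and Meis1 were not named.

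Markers of other cells that the marrow could hold were few. Igll1, the surrogate light chain of B-cell precursors, read -0.15 and -0.06 in KO_starmut and 0.23 and 0.28 in KO_MIG (-0.36 ± 0.05, adjusted p = 0.22), and 2 of 25 B-lineage genes were named. Of 31 T and NK cell genes 3 were named, with Cd27 at -0.26 ± 0.06, Cd96 at 0.18 ± 0.08 (not under an unadjusted p of 0.05 once any of the 4 arrays was left out) and Eomes at -0.03. Of 31 dendritic cell and antigen presentation genes, Cd74, the invariant chain of class II molecules, read 0.37 and 0.01 against -0.17 and -0.21 (0.38 ± 0.10, adjusted p = 0.379), Cd80 gave -0.07, and Flt3 is given above. The eosinophil list had Ccr3 and, at 0.02, Adora3. The fibroblast genes Mmp2 (-0.05) and Dcn (-0.02), 2 of 26 in a list for the virus producer cells, did not differ beyond their SE of 0.07 and 0.05. No erythroid or megakaryocyte gene was named. The part of a changed cell makeup in the differences of single genes was not tested.

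The reported targets of miR-223 are the genes for which the intact guide strand makes this comparison of interest, and 6 of 39 were named. Zfp36l2, an RNA-binding protein that destabilises messages, read -0.12 and -0.17 in KO_starmut and 0.05 and 0.08 in KO_MIG (-0.21 ± 0.06, adjusted p = 0.389). Lmo2 read -0.03 and 0.02 against 0.20 and 0.22. Igf1r, a growth factor receptor tyrosine kinase, read 0.01 and -0.01 against 0.16 and 0.15 (-0.16 ± 0.09, adjusted p = 0.689). The arrays did not overlap for these genes, as for 65.1% of single-symbol probe sets, and the values of KO_starmut were the lower ones. Nlrp3 read 0.10 and 0.00 against 0.00 and -0.21, and its groups overlapped. Rasa1 gave 0.10, and its groups did not overlap either, with KO_starmut the higher at 0.08 and 0.07 against -0.01 and -0.03. Sp3 gave 0.07. In all 3 of the 6 were below 0 and 3 above, 2 of them (Zfp36l2 and Lmo2) under an unadjusted p of 0.05 on the lower side, where 19.8% of single-symbol probe sets were. The median of -0.05 was close to the -0.04 of all probe sets with a single symbol. Neither was under 0.05 without KO_MIG replicate 3 or KO_starmut replicate 3, and without KO_MIG replicate 2 there was 1 on each side and a median of 0.01. The probe set that covers the miR-223 locus read -0.08 and 0.15 in KO_starmut and -0.01 and 0.14 in KO_MIG, a difference of -0.03 ± 0.08. Its WT_MIG arrays read below every knockout array, at -0.98 and -1.07. This probe set is listed under 2 symbols, and whether its probes follow the microRNA or would read a vector transcript was not tested.

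**Figure D3:**
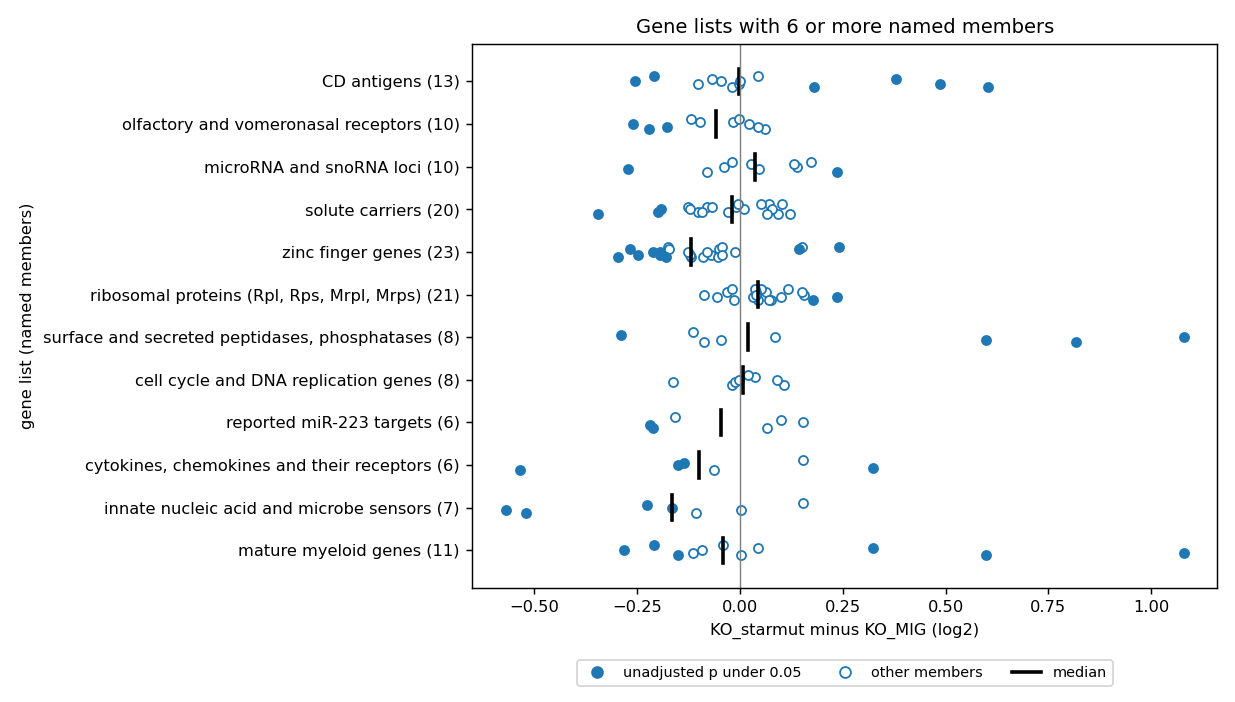
KO_starmut minus KO_MIG (log2, horizontal axis) for the members of the gene lists with 6 or more named members, whose number stands in brackets. Filled points are under an unadjusted p of 0.05, open points are not, and bars mark medians. Zinc finger genes have the lowest median after the innate sensors, at -0.12, and ribosomal protein genes the highest, at 0.04.

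In larger families the medians lay between -0.12 and 0.04. The lists were chosen with earlier results of these data known, so the counts are not results about a family. Of 23 named zinc finger genes, which mostly encode DNA-binding proteins, 20 had values below 0 and 3 above, with a median of -0.12. At an unadjusted p under 0.05, 7 were lower, among them Zfp689 at -0.30 ± 0.06, Zbtb16, the transcription factor PLZF, at -0.27 ± 0.07 and Zfp870 at -0.25 ± 0.05, and 2 were higher, Zfp583 at 0.24 ± 0.08 and Zfp367 at 0.14. The 7 became 4 without KO_starmut replicate 2 or KO_MIG replicate 2, and the 2 higher became 0 without KO_starmut replicate 2 and 1 without any other array. Among all single-symbol probe sets 19.8% were on the lower side and 6.94% on the higher. Symbols that start like ribosomal protein genes were 21 in number, including the kinase genes Rps6kb1 and Rps6ka3. Of these, 16 were above 0 and 5 below, and the median was 0.04. The 2 under an unadjusted p of 0.05 were the mitochondrial ribosomal proteins Mrpl23 (0.24 ± 0.09, and 0.22 on a further probe set) and Mrpl30 (0.18 ± 0.06). Both were higher, as were 6.94% of all single-symbol probe sets at that p. Those 2 became 0 without KO_starmut replicate 2 and 1 without KO_starmut replicate 3 or KO_MIG replicate 3. With each array centred on its median and with quantile normalization, 20 and 19 zinc finger genes were below 0. Under both, 16 ribosomal ones were above 0 and 4 were under an unadjusted p of 0.05. Of the 1081 single-symbol probe sets, 86 with centring and 101 with quantile normalization were higher at that p. Solute carriers numbered 20, with a median of -0.02. The zinc transporter Slc39a2 gave -0.34 ± 0.07, the taurine transporter Slc6a6 -0.20 ± 0.06 and the organic anion transporter Slco3a1 -0.19 ± 0.07. These 3 were lower at an unadjusted p under 0.05 and none was higher, beside 19.8% lower of all single-symbol probe sets. Only 1 of the 3 was under it without KO_starmut replicate 3. Olfactory and vomeronasal receptors gave 3 lower of 10 (Olfr161, Olfr10 and Olfr555, at -0.26 to -0.18), and 0 of 10 without KO_starmut replicate 2. With no replicate block 1 of the 10 was lower at that p, and with it 19.8% of all single-symbol probe sets were. A further probe set of Olfr161 gave -0.09.

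Of 13 named CD antigens, Cd200r3, Cd55, Cd74 and Cd96 were higher and Cd27 and Cd33 lower at an unadjusted p under 0.05, beside 6.94% higher and 19.8% lower of all single-symbol probe sets. The 4 became 3 whichever array was left out, the 2 became 1 without KO_starmut replicate 2 or KO_MIG replicate 3, and the median was -0.00229. None of the 8 named cell cycle and DNA replication genes was under an unadjusted p of 0.05 with the values as deposited. They lay between -0.16 (Rfc3, a subunit of the clamp loader) and 0.11 (Orc3l, of the origin recognition complex). The 3 named interferon response genes were not under it with these values either, though 1 was, on the lower side, with quantile normalization. Stat2, which carries the interferon signal, stood at -0.16 ± 0.07, Trim30 at -0.14 and the RNA-activated kinase Eif2ak2 at 0.09. The immediate early gene Fos gave 0.25 ± 0.12, with KO_MIG replicate 3 low at -0.45 and the other arrays of the comparison between -0.01 and 0.03. Of 10 microRNA and small nucleolar RNA loci, the haematopoietic Mir142 gave -0.27 ± 0.11 and Mir186 gave 0.23 ± 0.07, and the others lay between -0.08 and 0.17. The Y-linked Eif2s3y gave 0.16 ± 0.07, and the histone gene Hist1h2bm gave -0.26 ± 0.06.

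How the star-mutant cells stood against cells with the other mutant vector was read from KO_starmut minus KO_223mut, in which the KO_MIG arrays cancel. It shares the KO_starmut arrays with the comparison above, so the values stand side by side and no agreement is counted. One of 28853 probe sets (0.00347%) passed a limma adjusted p of 0.05, the unnamed 10458589, and 2809 (9.74%) were under an unadjusted p of 0.05. Ly6a was 1.21 ± 0.13 higher in KO_starmut than in KO_223mut (adjusted p = 0.123), Crisp1 1.42 ± 0.20 higher (adjusted p = 0.166), Acpp 0.67 ± 0.08 higher (adjusted p = 0.142) and Mmp12 0.70 ± 0.11 higher (adjusted p = 0.191). For these genes the star-mutant arrays were the high ones against both knockout controls. Among genes that read lower than in KO_MIG, Gramd3 gave -0.49 ± 0.06 (adjusted p = 0.142) and Apobec3 gave -0.31 ± 0.06. Fam49a (0.04 ± 0.06), Syne2 (0.01 ± 0.06) and Fam114a1 (0.01 ± 0.08) differed from KO_223mut by less than their SE, and Bmx gave -0.06 ± 0.07. Values of the opposite sign to those against KO_MIG were found for Pilra, at 0.23 ± 0.07, and Mir142, at 0.43 ± 0.11, which read lowest in KO_223mut (-0.39 and -0.32 for Pilra and -0.49 and -0.57 for Mir142). Nlrp3 gave 0.50 ± 0.08 and Itgam gave 0.47, against 0.15 and -0.09 relative to KO_MIG.

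The pairs of same-numbered arrays share no array, which allows the difference to be read separately in each. Across 28844 probe sets the difference of the arrays numbered 2 and that of the arrays numbered 3 had a Pearson correlation of 0.218 and a Spearman correlation of 0.153. These are descriptions over probe sets of the same arrays, not over independent replicates. Over the 1081 probe sets with a single symbol the Pearson correlation was 0.702, but the authors selected these on the same arrays for differences between groups, and over the 27589 probe sets outside their list it was 0.182. The groups did not overlap in 8824 of 28853 probe sets (30.6%) and in 65.1% of the probe sets with a single symbol.

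**Figure D4:**
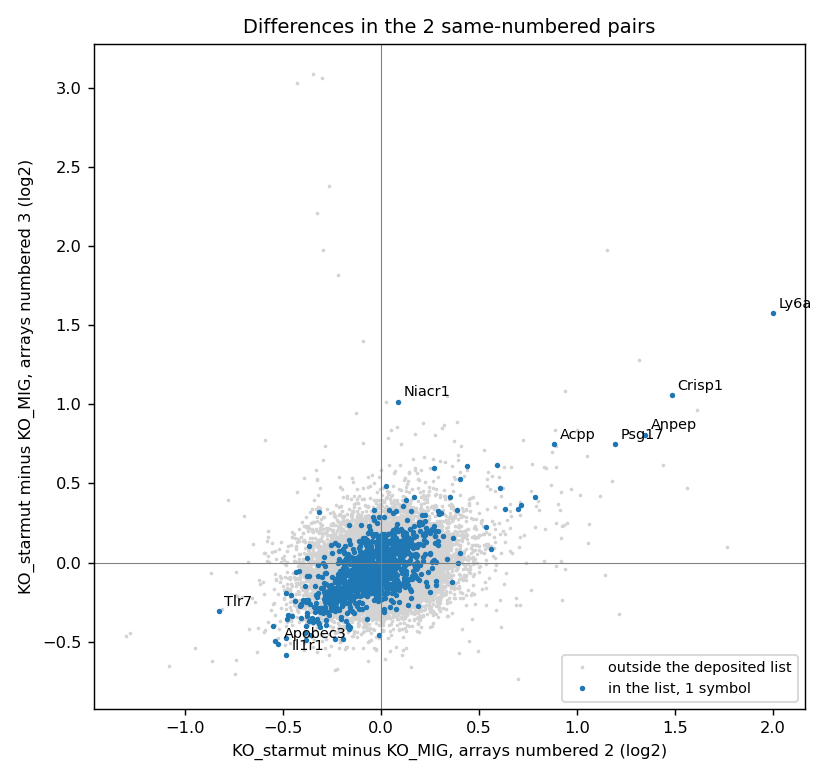
KO_starmut minus KO_MIG (log2) in the arrays numbered 2 (horizontal axis) and 3 (vertical axis), 1 point a probe set, grey for probe sets outside the authors' list and blue for those in it with a single symbol. Ly6a, Crisp1, Anpep, Psg17 and Acpp lie far up in both pairs, Niacr1 in the pair numbered 3 only, and 7 grey points above 1.8 in the pair numbered 3 lie below 0 in the pair numbered 2.

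The balance of directions over all probe sets depended on the scaling. At an unadjusted p under 0.05, 962 probe sets (3.33%) were higher and 1593 (5.52%) lower with the values as deposited, so that 37.7% of them were higher. That share was 48.4% with quantile normalization (1481 higher and 1578 lower), 47.6% with each array centred on its median, and 50.4% without KO_MIG replicate 3. It was 28.9% with no replicate block (350 higher and 863 lower) and 34.3% without KO_MIG replicate 2. Among probe sets with a single symbol the higher share was 26.0%, and 30.7% and 32.3% with the arrays centred and with quantile normalization. Among unnamed probe sets under an unadjusted p of 0.05 whose groups did not overlap, the largest positive differences were those of 10560481 at 1.56 ± 0.21 and 10563570 at 1.30 ± 0.26, and the largest negative ones those of 10563712 at -0.88 ± 0.22 and 10555297 at -0.87 ± 0.12, with adjusted p-values between 0.177 and 0.363. Probe sets 10458589 (0.92 ± 0.08) and 10403821 (0.86 ± 0.07), singled out after their values were seen, had the same adjusted p of 0.0595 as Ly6a.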

How the data were processed

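RNA of 8 bone marrow cell samples was hybridised to Affymetrix MoGene 1.0 arrays. Per the file headers, signals were summarised by RMA16 with annotation release na31 on the mouse build mm9, and the authors deposited log2 values minus each probe set's median over 8 arrays (row medians of 0 within 7.02e-07 here). Per its header, the authors' deposited list holds probe sets with raw signal from the 20th to the 100th percentile and a p-value under 0.05 in an uncorrected analysis of variance over the 4 groups. Its deposited ratios (absolute fold changes) and its signed fold change, a score by the authors, were not used. Its log2 fold changes of KO_MIG against KO_starmut equal differences of the group means within 4.85e-07.

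The linear model (limma 3.58.1, R 4.3.3) took all 28853 probe sets and all 8 arrays, with the 4 groups and the replicate number as fixed terms (3 residual and 4.23 prior degrees of freedom, two-sided p, Benjamini-Hochberg adjustment over all probe sets). The labels do not say what a replicate number marks. Within every one of the 6 pairs of groups, same-numbered arrays deviated together from their means (Pearson 0.36 to 0.533), which was taken as pairing. In simulated data of 28853 probe sets with this design, 47 of 50 changes of 0.5 (log2) were recovered. All 50 of each of the sizes 1, 1.5 and 2 were too, with 13 false calls among the probe sets left unchanged. The simulated noise was drawn from the spreads after moderation, with no other differences between groups. The recovered share therefore checks the fit and is not its power on the real arrays, where Ly6a at 1.79 did not pass.

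Named were the 15 largest differences each way among single-symbol probe sets with an unadjusted p under 0.05 and no overlap of the groups. Each of 28 gene lists added its members under that p, up to 6, and where it had none the pair of lowest p. The members and lists were chosen with earlier results of these data known. A list counts 1 probe set a gene, that with the smallest p. Symbols are those of the list, and 1012 of its 1049 were found in a RefSeq table of GRCm38.p6, used for current names only. No filter on dim probe sets was possible without levels. A few named genes are not reported here.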

Additional observations from a re-analysis of the deposited data

Results flagged for a closer look

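Probe set 10458589, which has no symbol in the sources used here, was the single probe set whose difference between the star-mutant vector and the vector of KO_223mut passed in limma (KO_starmut minus KO_223mut 1.12 ± 0.08, adjusted p = 0.0457, higher in KO_starmut in both same-numbered pairs). It read 1.21 and 0.68 in KO_starmut, 0.21 and -0.16 in KO_MIG, -0.05 and -0.31 in KO_223mut and 0.05 and -0.21 in WT_MIG. In each group the array numbered 2 read higher than the array numbered 3, and without the replicate block no probe set passed in that comparison, the lowest adjusted p being 0.741.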

How the results depend on the processing

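With the replicate block as main fit, 0 probe sets passed in KO_starmut minus KO_MIG, and 0 with no replicate block, with the 6 knockout arrays, robust eBayes, centring, quantile normalization or averaged probe sets. With only the 4 arrays of both groups, which leave 1 residual degree of freedom, 2 passed (Ly6a and 10563570). Leaving out 1 array gave 0 to 1, the 1 being 10560481 without KO_MIG replicate 2. Tested within the authors' list alone, 168 passed and 394 were under an unadjusted p of 0.05, in a list selected on these arrays. The 2555 probe sets under an unadjusted p of 0.05 became 1213 with no replicate block and 1439 to 2318 without 1 array, the 1439 without KO_starmut replicate 2. KO_starmut minus KO_223mut had 1 call, and 0 with no replicate block, with the 6 knockout arrays or with quantile normalization, 140 within the list, and 0 to 7 without 1 array (7 without either KO_MIG array, 0 without either KO_starmut array). No named gene was called by the adjusted p with the block or without it, so leaving it out could remove no such call. At an unadjusted p under 0.05, counts of list members did fall without the block. On the lower side, the 3 cytokine and receptor genes became 1, as did the 3 olfactory and vomeronasal receptors. The 2 ribosomal ones on the higher side became 1, while the 4 innate sensors on the lower side stayed 4. With all 4 arrays of a number left out there is no test, only the difference of 1 pair. The 30 genes with the largest differences had been chosen for groups that did not overlap. Their sign could therefore hardly change, and that none did in 14 settings is no test of them. Of 81 values followed, 4 changed sign without 1 array: Clec4d (-0.0776 to 0.0807), Dcn (-0.037 to 0.00492), the Mir223 probe set (-0.13 to 0.0652) and Mmp2 (-0.125 to 0.0311).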

Other observations

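In 6 probe sets without a symbol here, KO_starmut replicate 3 stood at least 1.5 (log2) above every other array, and no probe set had another array of the comparison so far above or below the rest. Their identifiers run close together, from 10582882 to 10582916. KO_starmut replicate 3 read 1.95 to 3.04 in them, while the other 7 arrays lay between -1.19 and 0.48. Their differences from KO_MIG were 0.84 to 1.38 with unadjusted p-values from 0.09 to 0.164, so 4 of the 13 differences of 1 or more came from this single array. They were singled out after their values were seen.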
